A study of Mus musculus with 9 samples.

Results

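Drd1, Tac1, Pdyn, Slc35d3, Eya1 and Sfxn1 are genes by which D1 MSNs, the medium spiny neurons of the striatum that carry the D1 dopamine receptor, are recognised, and their levels are described here in each library of a mouse TrkB deletion study. They were taken from a list of symbols that was chosen with earlier results of these data known. All 6 had a row among the 47729 gene identifiers of the deposited tables, and all 6 passed the filter on low values (1 CPM or more in 3 or more libraries), which left 13695 genes to test. CPM is the number of reads of a gene scaled to a library total of 1000000 reads.

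The 9 libraries came from the dorsal striatum at postnatal day 28, in mice of C57BL/6 background, and formed 3 groups of 3. The first carried D1-Cre, floxed TrkB and RiboTag (D1-Cre-flTrkB-RT) and came from mice with spontaneous repetitive behavior, named here the stereotypy group. The second had the same genotype and came from mice without that behavior (no stereotypy). The third carried D1-Cre and RiboTag without the floxed allele (D1-Cre-RT, control). Thus every mouse carried D1-Cre and RiboTag, a hemagglutinin-tagged ribosomal protein switched on by Cre, and polyribosomes were precipitated through the tag. Cre under control of the D1 receptor gene removes floxed TrkB in D1-expressing cells, wherever in the body these are. The labels describe biological triplicates and give no sex, no batch, no D1-Cre line and no number of animals per library. No library of RNA before precipitation was analysed here, so enrichment of D1 MSN RNA was not measured.

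D1 MSNs project to the output nuclei of the basal ganglia and form the direct pathway, which promotes movement. Dopamine excites them through the D1 receptor, which raises cyclic AMP, and the cells release GABA together with the peptides substance P and dynorphin. The neighbouring D2 MSNs of the indirect pathway carry the D2 receptor and enkephalin instead, and BDNF released from cortical axons acts on TrkB in both.

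The genes lie at separate loci except for one pair of neighbours (GRCm38, annotation GENCODE M21). Drd1 (ENSMUSG00000021478, chromosome 13, 54051183 to 54055705, minus strand) encodes the D1 receptor. Sfxn1 (ENSMUSG00000021474, chromosome 13, 54071869 to 54108342, plus strand), a mitochondrial serine transporter, starts 16163 bases away on the opposite strand with 0 annotated genes between them. Tac1 (ENSMUSG00000061762, chromosome 6, 7554879 to 7565834) encodes the precursor of substance P and neurokinin A. Pdyn (ENSMUSG00000027400, chromosome 2, 129686565 to 129699844) encodes prodynorphin, the precursor of the dynorphins, which act on kappa opioid receptors. Slc35d3 (ENSMUSG00000050473, chromosome 10, 19847916 to 19851459) belongs to the nucleotide sugar transporter family and is known in mice for a role in bringing the D1 receptor to the cell surface. Eya1 (ENSMUSG00000025932, chromosome 1, 14168954 to 14310235) is a transcriptional coactivator with phosphatase activity. All 6 are protein coding. No exon of another annotated gene overlapped their exons, so reads shared with an overlapping gene are not at issue for them.

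Because the libraries of the TrkB-deleted groups did not overlap for Drd1, Tac1 and Slc35d3 but did for Pdyn, the 250 bases before the RefSeq start of these 4 genes are shown (RefSeq, GRCm38.p6, 5′ to 3′ on the gene's strand). The TrkB-deleted groups overlapped for Eya1 and Sfxn1 as well. RefSeq windows were found for 5 of the 6 genes, not for Eya1. Capitals mark matches, on either strand, to CGTCA (the core of the cyclic AMP response element) or CACGTG (an E-box).
Drd1, chr13:54055659-54055908, minus strand: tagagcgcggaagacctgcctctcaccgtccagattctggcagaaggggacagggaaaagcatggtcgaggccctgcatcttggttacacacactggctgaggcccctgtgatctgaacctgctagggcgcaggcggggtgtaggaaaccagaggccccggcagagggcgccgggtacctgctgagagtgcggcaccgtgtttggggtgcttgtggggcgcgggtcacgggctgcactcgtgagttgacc
Tac1, chr6:7554811-7555060, plus strand: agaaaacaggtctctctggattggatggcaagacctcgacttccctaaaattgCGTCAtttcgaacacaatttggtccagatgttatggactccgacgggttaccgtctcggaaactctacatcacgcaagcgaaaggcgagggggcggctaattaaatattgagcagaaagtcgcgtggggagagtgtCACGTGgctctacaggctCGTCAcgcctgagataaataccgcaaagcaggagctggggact
Slc35d3, chr10:19851460-19851709, minus strand: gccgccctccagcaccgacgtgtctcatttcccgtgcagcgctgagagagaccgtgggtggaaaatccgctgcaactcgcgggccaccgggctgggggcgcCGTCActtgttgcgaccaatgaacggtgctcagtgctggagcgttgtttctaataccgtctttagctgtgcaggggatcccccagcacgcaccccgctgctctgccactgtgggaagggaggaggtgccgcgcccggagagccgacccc
Pdyn, chr2:129699939-129700188, minus strand: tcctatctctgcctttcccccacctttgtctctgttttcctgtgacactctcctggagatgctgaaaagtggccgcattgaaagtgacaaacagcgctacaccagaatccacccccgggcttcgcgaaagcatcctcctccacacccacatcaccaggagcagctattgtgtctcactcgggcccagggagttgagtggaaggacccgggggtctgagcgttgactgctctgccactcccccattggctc
The last 47 bases of the Drd1 window and the last 182 of the Tac1 window lie inside the gene as GENCODE draws it. The Tac1 window held CGTCA or its complement at positions -197 and -43 and CACGTG at -61, counted from the start. The Slc35d3 window held CGTCA at -149, and the windows shown for Drd1 and Pdyn held neither. That of Sfxn1, which is not shown, held neither as well. Of 32851 windows of the same length, 17.8% held CGTCA and 6.02% held CACGTG. The full element TGACGTCA (in 1.55% of windows, each of which also counts for CGTCA), the AP-1 motif TGANTCA (6.75%) and the EGR motif GCGNGGGCG (4.70%) were searched on both strands as well and had no match in the 7 windows of the 5 genes. A match is a run of letters and not a measured binding site.

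Totals ranged from 27103152 to 40578512 reads per library. The targeted gene Ntrk2, which encodes TrkB, was lower in every library of the TrkB-deleted groups than in any control. It stood at 34.3, 43.9 and 40.7 CPM in the stereotypy libraries and at 23.4, 14.1 and 19.2 CPM without stereotypy. The controls had 319, 385 and 487 CPM. The TrkB-deleted groups did not overlap each other. Ntrk2 was 1.05 higher with stereotypy than without on the log2(CPM + 1) scale (limma adjusted p = 0.0206). Whether this bears on other differences between these groups was not tested. A pair of libraries stood apart from their groups in markers of other neurons. Control replicate 3 had the highest sum of D2 MSN markers (1433 CPM, against 443 and 629 CPM in the other controls), and no stereotypy replicate 3 had the highest sum of cortical excitatory markers (1451 CPM, against 642 and 604 CPM in the others of its group). Both also had the lowest Drd1 and Tac1 of their group. Several of the counts and medians below are also given without this pair, an alternative chosen after seeing the data. Where none is given, the value may still have moved.

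Drd1 was measured with 20912 to 31625 reads per library. It stood at 864, 841 and 955 CPM in the stereotypy libraries, at 627, 655 and 515 CPM without stereotypy and at 866, 865 and 684 CPM in the controls. Every stereotypy library lay above every library without stereotypy, and every library without stereotypy lay below every control, while stereotypy and control libraries overlapped. The means were 887 ± 60.4, 599 ± 73.9 and 805 ± 105 CPM in the same order (SD, n = 3 each), so the level without stereotypy was 74.4% of the control mean. On the log2(CPM + 1) scale Drd1 was 0.57 higher in the stereotypy group than in the group without (SE 0.12, 95% interval 0.30 to 0.84, limma adjusted p = 0.0249 over all genes tested). This call was lost when stereotypy replicate 2 (0.61, adjusted p = 0.0699 in limma), stereotypy replicate 3 (0.52, adjusted p = 0.0994), no stereotypy replicate 1 (0.61, adjusted p = 0.0775) or no stereotypy replicate 2 (0.64, adjusted p = 0.0680) was left out. Without control replicate 3 and no stereotypy replicate 3 together the difference was 0.47 (limma adjusted p = 0.0198). Against control the log2 difference was 0.15 with stereotypy (interval -0.12 to 0.42, limma adjusted p = 0.498) and -0.42 without (interval -0.69 to -0.16, limma adjusted p = 0.0646). Neither passed the threshold of 0.05, and without control replicate 3 that of the no stereotypy group did (-0.54, limma adjusted p = 0.0249). In a precipitate, fewer D1 cells and less RNA per cell cannot be told apart.

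Tac1 stood at 625, 561 and 598 CPM in the stereotypy libraries, at 415, 402 and 348 CPM without stereotypy and at 800.4, 779 and 420.05 CPM in the controls. The groups with and without stereotypy did not overlap, and every library without stereotypy lay below every control. The control mean of 667 ± 214 CPM (SD, n = 3) hides a gap between replicate 3 and the other two. Tac1 was 0.62 higher with stereotypy than without on the log2 scale (SE 0.20, interval 0.17 to 1.07, limma adjusted p = 0.0765), which did not pass. The difference of the no stereotypy group from control was -0.72 (SE 0.20, interval -1.17 to -0.27, limma adjusted p = 0.0598), which did not pass either. Without control replicate 3 both passed in limma, at 0.62 (adjusted p = 0.0121) and -1.03 (adjusted p = 0.000961). The difference of the stereotypy group from control was -0.11 (interval -0.56 to 0.34, limma adjusted p = 0.786). It depended on the controls kept, being 0.05 when control replicate 1 was left out, 0.04 when it was replicate 2 and -0.41 when it was replicate 3 (limma adjusted p = 0.897, 0.946 and 0.0626).

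Pdyn, the other peptide precursor of these cells, differed in pattern from Tac1. It stood at 273, 346 and 286 CPM in the stereotypy libraries, at 282, 367 and 298 CPM without stereotypy and at 253, 261 and 153 CPM in the controls. All 6 libraries of the TrkB-deleted groups lay above all 3 controls, and the TrkB-deleted groups overlapped each other. With stereotypy its mean was 135% of that of the controls, and without stereotypy 142%. The log2 difference from control was 0.47 with stereotypy (SE 0.19, interval 0.05 to 0.89, limma adjusted p = 0.163), 0.53 without (SE 0.19, interval 0.11 to 0.95, limma adjusted p = 0.129) and 0.50 for the average of both (SE 0.16, interval 0.14 to 0.86, limma adjusted p = 0.110). None of the 3 passed. They rested in part on control replicate 3, without which they were 0.22, 0.28 and 0.25 (limma adjusted p = 0.349, 0.243 and 0.267). Between the TrkB-deleted groups the difference was -0.06 (interval -0.48 to 0.35, limma adjusted p = 0.854).

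**Figure D1:**
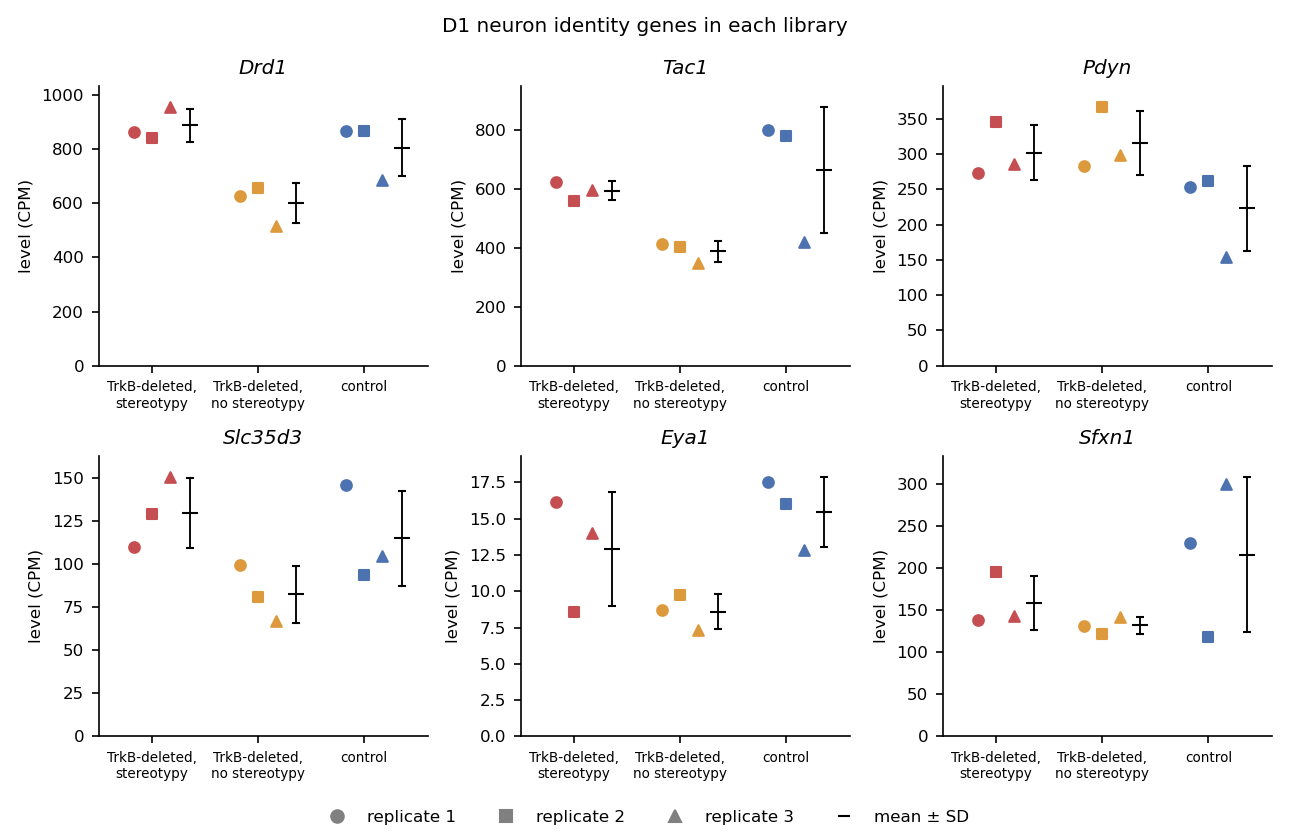
Level of each gene (CPM, linear axis from 0) in every library, by group, with the group's mean ± SD (n = 3) to the right of its points. Marker shapes give the replicate number. Drd1, Tac1 and Slc35d3 of the stereotypy libraries lie above all libraries without stereotypy, and Pdyn of both TrkB-deleted groups lies above all controls.

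Slc35d3 stood at 109.8, 129 and 150.5 CPM in the stereotypy libraries, at 99.7, 81.0 and 66.7 CPM without stereotypy and at 146, 93.7 and 105 CPM in the controls. The stereotypy libraries lay above all libraries without stereotypy, and both groups overlapped the controls. The difference between the TrkB-deleted groups was 0.65 (SE 0.19, interval 0.24 to 1.06, limma adjusted p = 0.0493), just past the threshold. That call was lost without any 1 of the 6 libraries compared, with differences of 0.51 to 0.80 and limma adjusted p of 0.0569 to 0.179. Against control the log2 difference was 0.19 with stereotypy (interval -0.22 to 0.60, limma adjusted p = 0.571) and -0.47 without (interval -0.88 to -0.06, limma adjusted p = 0.167).

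Eya1 had the fewest reads, 267 to 641 per library. It stood at 16.2, 8.58 and 14.0 CPM in the stereotypy libraries, at 8.71, 9.72 and 7.32 CPM without stereotypy and at 17.5, 16.0 and 12.8 CPM in the controls. Every library without stereotypy lay below every control, while stereotypy replicate 2 lay within the range of the no stereotypy group. The difference of the no stereotypy group from control was -0.78 (SE 0.21, interval -1.24 to -0.31, limma adjusted p = 0.0532), which did not pass. It passed without control replicate 3 (-0.90, limma adjusted p = 0.0448) and without stereotypy replicate 2 (-0.78, limma adjusted p = 0.0234). The log2 difference was 0.50 between the TrkB-deleted groups (interval 0.04 to 0.97, limma adjusted p = 0.141) and -0.27 between stereotypy and control (interval -0.74 to 0.20, limma adjusted p = 0.465).

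Sfxn1, the neighbour of Drd1, varied most among the controls. It stood at 138, 196 and 143 CPM in the stereotypy libraries, at 132, 122 and 143 CPM without stereotypy and at 230.2, 118 and 301 CPM in the controls. All 3 groups overlapped. Control replicate 2 had the lowest value of all 9 libraries and control replicate 3 the highest. The log2 difference from control was -0.36 with stereotypy (interval -0.96 to 0.24, limma adjusted p = 0.448) and -0.61 without (interval -1.21 to -0.01, limma adjusted p = 0.216). Without control replicate 2 these were -0.74 and -0.99 and passed in limma (adjusted p = 0.0391 and 0.00795), and without control replicate 3 they were -0.07 and -0.32 (adjusted p = 0.885 and 0.471). With stereotypy Sfxn1 was 0.25 higher than without (interval -0.35 to 0.85, limma adjusted p = 0.574). Although their starts lie close together, Drd1 and Sfxn1 ranked the controls in different orders.

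Between the TrkB-deleted groups, 2 of the 6 genes were higher with stereotypy, 0 were lower and 4 did not pass in limma, where 10.2% of all genes tested passed in either direction and 6.61% as higher. At an unadjusted p under 0.05, 4 of the 6 did (Drd1, Tac1, Slc35d3 and Eya1), against 29.9% of all genes. The libraries of these groups did not overlap for 3 of the 6, all higher with stereotypy, where 38.3% of all genes tested did not overlap in either direction and 20.8% as higher. The median difference of the 6 was 0.54 (0.44 without control replicate 3 and no stereotypy replicate 3), and that of all genes tested was 0.02. In this comparison limma called 0 of all genes tested when stereotypy replicate 3 (2873 genes at an unadjusted p under 0.05), no stereotypy replicate 1 (2926) or no stereotypy replicate 2 (3088) was left out, and 1 when stereotypy replicate 2 (3269) was. Every call between the TrkB-deleted groups in the text, those of the gene lists included, is therefore lost when any 1 of the libraries that gave 0 is left out. In the no stereotypy group against control 0 of 6 passed in limma, where 6.77% of all genes passed. At an unadjusted p under 0.05 all 6 did, 5 as lower and Pdyn as higher, against 22.5% of all genes, but 3 of 6 did without control replicate 3 and no stereotypy replicate 3. The edgeR quasi-likelihood test on the recovered reads called 2 (Tac1 and Eya1), where it called 6.6% of all genes, and DESeq2 called 4 (Drd1, Tac1, Eya1 and Sfxn1), where it called 11%. Libraries did not overlap for 4 of 6, namely Drd1, Tac1 and Eya1 as lower and Pdyn as higher, against 25.5% of all genes. The median was -0.54 (-0.40 without those libraries), against 0.03 over all genes. In the stereotypy group against control 0 of 6 passed in limma, where 5.1% of all genes passed, and edgeR (4.7% of all genes) and DESeq2 (11.1%) called 0 as well. Pdyn alone had an unadjusted p below 0.05, where 24% of all genes did. Pdyn alone did not overlap between these groups, against 27.7% of all genes in either direction and 18% as higher. The median was 0.02 (-0.02 without control replicate 3 and no stereotypy replicate 3), against 0.05 over all genes. When the TrkB-deleted groups were averaged and set against control, 0 of 6 passed in limma (5.72% of all genes), 3 had an unadjusted p below 0.05 (20.4%), edgeR called 0 (5.32%) and DESeq2 called 3 (Tac1, Eya1 and Sfxn1; 9.68%). Of the 6 genes, Pdyn did not overlap in that comparison, against 9.3% of all genes in either direction and 6.05% as higher. The comparisons with control use the same 3 control libraries and are not independent of each other. Across all 3 groups the moderated F test of limma passed for Drd1 (adjusted p = 0.0273) and for none of the other 5 (adjusted p = 0.0591 to 0.256), where 14% of all genes passed.

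**Figure D2:**
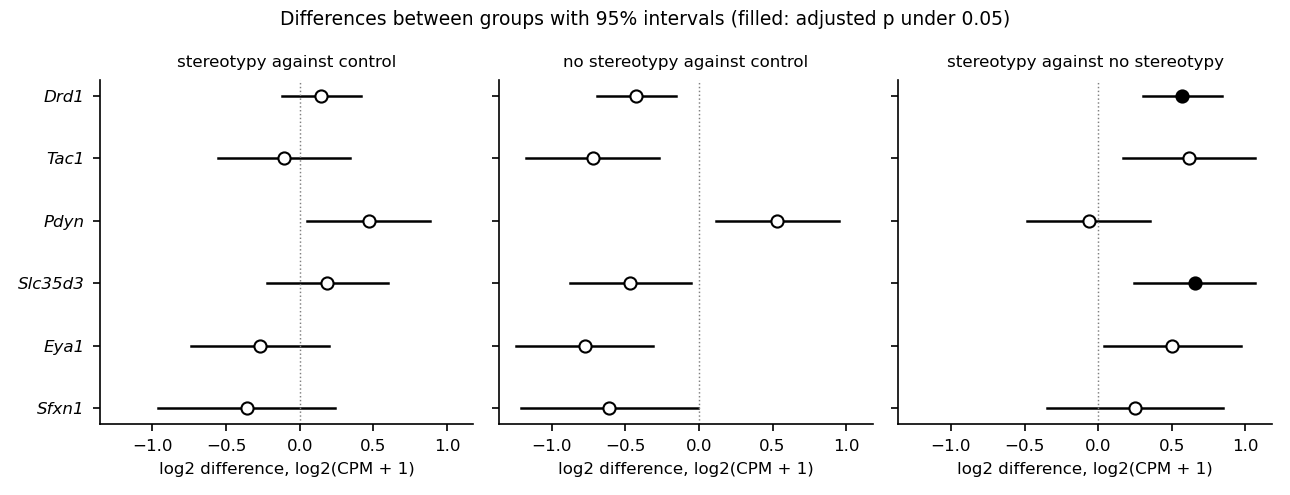
Log2 differences of log2(CPM + 1) in limma for each gene (points) with 95% intervals (lines), in 3 comparisons that share libraries. Filled points passed an adjusted p of 0.05, which Drd1 (0.57) and Slc35d3 (0.65) did between the TrkB-deleted groups. In the no stereotypy group against control, 5 genes lie below 0 and Pdyn above it.

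Ratios within a library do not depend on its total and compare the genes with each other. The ratio of Pdyn to Tac1 was 0.436, 0.616 and 0.478 in the stereotypy libraries, 0.680, 0.912 and 0.855 without stereotypy and 0.317, 0.335 and 0.365 in the controls. It separated all 3 groups, with the highest values without stereotypy and the lowest in the controls, and the controls agreed closely even though replicate 3 had low levels of both genes. The means were 0.510 ± 0.094, 0.815 ± 0.121 and 0.339 ± 0.0245 (SD, n = 3 each). This was the single ratio of the 15 possible pairs that did so. It was picked after its values were seen and is given without a test. The ratio of Pdyn to Drd1 averaged 0.342 ± 0.060 with stereotypy, 0.529 ± 0.069 without and 0.273 ± 0.043 in the controls. Here the stereotypy and control libraries overlapped, and the libraries without stereotypy lay above both. The ratio of Tac1 to Drd1 averaged 0.672 ± 0.049, 0.650 ± 0.032 and 0.813 ± 0.173 in the same order, and the groups overlapped.

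**Figure D3:**
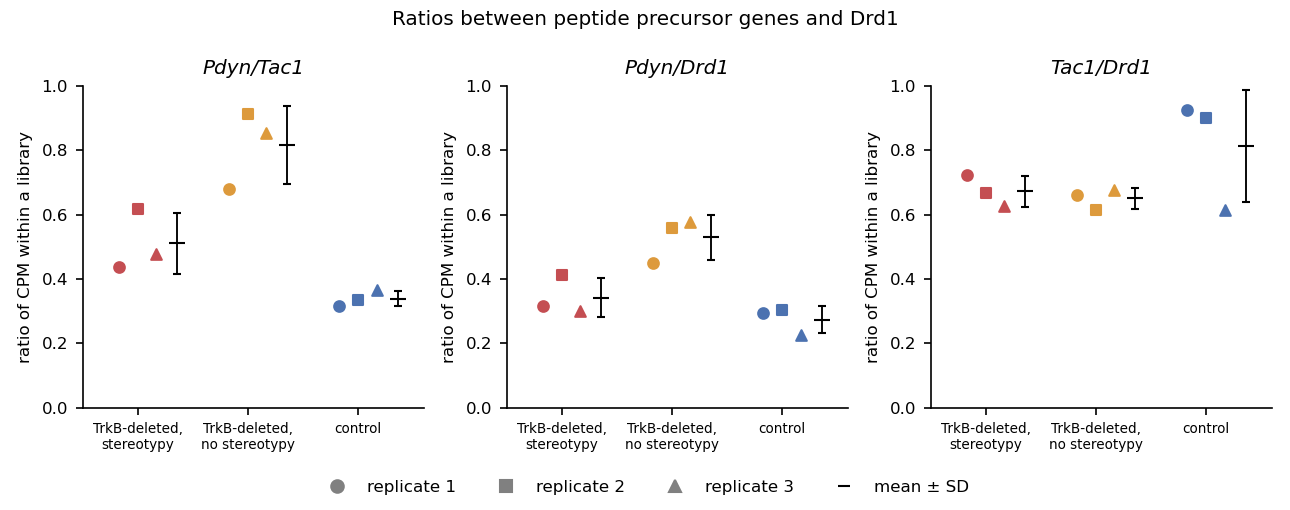
Ratios of CPM within a library (axis from 0 to 1) for Pdyn to Tac1, Pdyn to Drd1 and Tac1 to Drd1, by group, with mean ± SD (n = 3) beside the points. Pdyn to Tac1 lies at 0.436 to 0.616 with stereotypy, 0.680 to 0.912 without and 0.317 to 0.365 in the controls, with no overlap.

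Levels of different genes were compared per kilobase of exon. In the stereotypy group Drd1 had 244 ± 16.6 CPM per kilobase, Tac1 175 ± 9.55, Pdyn 104 ± 13.4, Slc35d3 49.4 ± 7.74, Sfxn1 16.1 ± 3.26 and Eya1 1.66 ± 0.502 (SD, n = 3). The order of the means was the same in all 3 groups. With stereotypy no neighbours in that order overlapped. Without stereotypy Tac1 (114 ± 10.5) and Pdyn (109 ± 15.6) overlapped, and in the controls Drd1 (222 ± 28.8) overlapped Tac1 (196 ± 62.9), and Pdyn (77.2 ± 20.9) overlapped Slc35d3 (43.7 ± 10.5). By mean level per kilobase in the stereotypy group Drd1 stood at place 114 and Eya1 at place 10222 of 13661 tested genes with an exon length.

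Markers of other cells were compared beside these differences. D2 MSN markers (5 of 6 with a row, none at 0 in every library, led by the enkephalin precursor gene Penk) summed to 259 to 424 CPM with stereotypy, 597 to 1050 CPM without and 443 to 1433 CPM in the controls. The stereotypy libraries, whose group had the highest mean of Drd1, had the lowest D2 sums, without overlap with either other group. Markers of cortical excitatory neurons (7 of 7 with a row, led by the vesicular glutamate transporter Slc17a7) summed to 168 to 300 CPM, 604 to 1451 CPM and 278 to 858 CPM in the same order. Interneuron markers (11 of 11) summed to 235 to 411, 390 to 626 and 254 to 630 CPM, astrocyte markers (12 of 12) to 646 to 674, 452 to 563 and 457 to 560 CPM, and oligodendrocyte markers (11 of 11) to 1202 to 2143, 767 to 1745 and 586 to 1215 CPM. The astrocyte sums were led by Slc4a4, with a mean of 307 CPM over all libraries. It was higher with stereotypy than without (0.64, limma adjusted p = 0.0154) and than in the controls (0.51, limma adjusted p = 0.0207). Slc1a2, with a mean of 181 CPM, passed in neither comparison (0.10 and 0.0002). With Slc4a4 taken out of the astrocyte sums, the stereotypy libraries overlapped both other groups. The separation of these sums therefore rested on Slc4a4. Of the astrocyte markers, 4 of 12 were higher with stereotypy than without and 7 of 12 higher with stereotypy than in the controls, with 0 lower in either, where 10.2% and 5.1% of all genes passed in these comparisons (3 and 5 of 12 without control replicate 3 and no stereotypy replicate 3). Microglia markers (10 of 10) summed to 37.1 to 45.2, 21.5 to 29.8 and 16.3 to 33.4 CPM in the same order, and vascular markers (11 of 11) to 36.7 to 92.7, 15.9 to 28.4 and 20.1 to 43.9 CPM. With stereotypy against without, 2 of 10 tested microglia markers and 1 of 10 tested vascular markers were higher and 0 lower (3 and 0 higher without the same pair of libraries). With stereotypy against control, all 10 vascular markers had an unadjusted p under 0.05 (24% of all genes), 9 of them as higher. After adjustment 1 was higher and 1 lower. The most abundant, Tagln, was lower than in the controls with stereotypy (-2.57, limma adjusted p = 0.00234) and without (-2.71, limma adjusted p = 0.00107). The part of these cell markers in the differences of the D1 genes was not tested. Drd2, the D2 receptor, stood at 23.8 ± 5.76, 53.3 ± 7.63 and 42.7 ± 28.3 CPM (SD, n = 3 each), and Drd1 exceeded it in every library, 28.5 to 53.0-fold with stereotypy, 8.69 to 14.0-fold without and 9.14 to 40.5-fold in the controls. Of the 5 D2 markers tested, 0 passed between the TrkB-deleted groups in limma, where 10.2% of all genes passed. All 5 had an unadjusted p under 0.05 as lower with stereotypy, against 29.9% of all genes in either direction. In that comparison 4 passed without control replicate 3 and no stereotypy replicate 3.

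**Figure D4:**
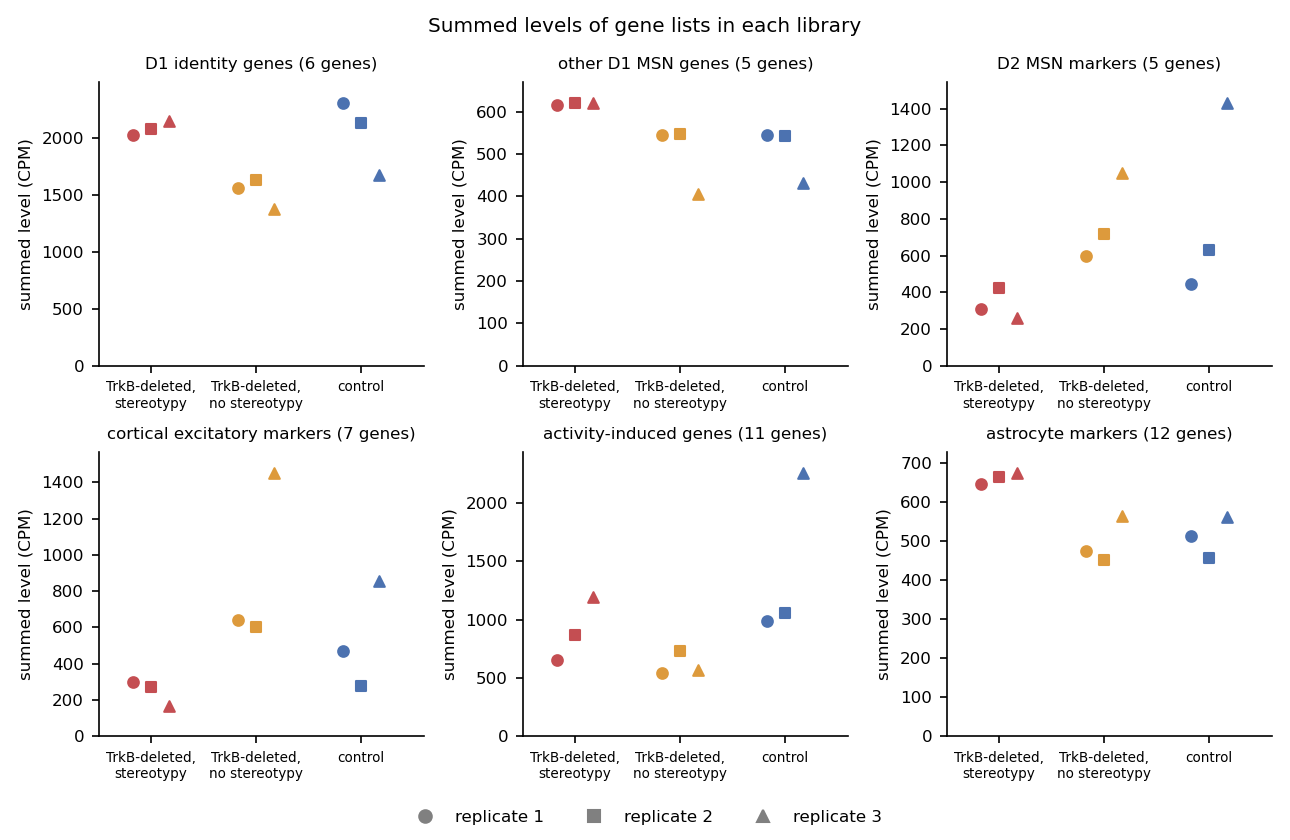
Summed level (CPM, linear axes from 0, scales differ) of the 6 D1 genes and of 5 other gene lists in every library, by group. Marker shapes give the replicate number. Control replicate 3 is highest in D2 MSN markers (1433 CPM) and activity-induced genes (2256 CPM), and no stereotypy replicate 3 is highest in cortical excitatory markers (1451 CPM).

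Among other genes of D1 MSNs, Foxp2 was higher with stereotypy than without. Of 5 tested (Isl1, Ebf1, Chrm4, Foxp2 and Zfp521), 1 was higher with stereotypy than without, 0 were lower and 4 did not pass (2 were higher without control replicate 3 and no stereotypy replicate 3). Foxp2, a transcription factor, averaged 279 ± 16.2 CPM with stereotypy, 186 ± 6.83 CPM without and 210.3 ± 38.7 CPM in the controls (SD, n = 3 each), a log2 difference of 0.58 between the TrkB-deleted groups (SE 0.12, limma adjusted p = 0.0226). Against control 0 of the 5 passed in limma, without stereotypy (6.77% of all genes) or with it (5.1%). At an unadjusted p under 0.05 there were 0 without stereotypy (22.5% of all genes) and 1 with it (24%). The list medians against control were -0.10 without stereotypy and 0.305 with it, against 0.03 and 0.05 over all genes. Of genes shared by both MSN types, 5 of 12 were higher with stereotypy than without and 0 lower, against the 10.2% of all genes. The list median was 0.23, against 0.02 over all genes. Without control replicate 3 and no stereotypy replicate 3, 2 of 12 were higher and the median was 0.19. The 5 included the transcription factor Foxp1 (0.58, limma adjusted p = 0.0154), the phosphodiesterase Pde10a (0.47, adjusted p = 0.0296) and the cyclic AMP-regulated phosphoprotein Arpp21 (0.44, adjusted p = 0.0324). In the no stereotypy group against control, 5 of the 12 were lower and 0 higher, where 6.77% of all genes passed. The striatal phosphatase Ptpn5 led them (-0.81, limma adjusted p = 0.0120) and was also lower with stereotypy than in the controls (-0.75, limma adjusted p = 0.0253).

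Of 17 tested genes of D1 receptor signalling, 5 were higher with stereotypy than without, 0 were lower and 12 did not pass (4 were higher without control replicate 3 and no stereotypy replicate 3). Over all genes 10.2% passed, and 6.61% as higher. The cyclic AMP-responsive factor Creb1 differed by 0.60 (limma adjusted p = 0.0396), the phosphodiesterase Pde7b by 0.50 (adjusted p = 0.0240) and the protein kinase A subunit Prkar2b by 0.47 (adjusted p = 0.0335). In the no stereotypy group against control 4 of 17 were lower and 0 higher, where 6.77% of all genes passed (2 lower without control replicate 3 and no stereotypy replicate 3). In the stereotypy group against control 0 of 17 passed in limma (5.1% of all genes), with 3 below 0.05 before adjustment (24% of all genes). Without the pair of libraries 1 passed there, as lower. The list medians were 0.13, -0.16 and 0.01 in these comparisons, against 0.02, 0.03 and 0.05 over all genes, and 0.04, -0.12 and 0.03 without the pair of libraries. Gnal, the G protein subunit that couples the D1 receptor to adenylyl cyclase in striatum, averaged 1034 ± 26.8, 951 ± 100.1 and 934 ± 26.5 CPM with stereotypy, without it and in the controls (SD, n = 3 each) and passed in none of them.

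Tac1 and Pdyn both encode peptide precursors, so genes that process and store peptides were compared too. Of 12 tested, 1 was higher and 1 lower in the no stereotypy group than in the controls, 0 higher and 2 lower in the stereotypy group than in the controls, and 0 higher and 2 lower with stereotypy than without (Chga and the convertase inhibitor Pcsk1n, which differed by -0.49). Over all genes tested, 6.77%, 5.1% and 10.2% passed in these comparisons, in the same order. Without control replicate 3 and no stereotypy replicate 3, 2 were higher and 4 lower in the no stereotypy group than in the controls, and 2 higher and 2 lower in the stereotypy group than in the controls. Chga, the granule protein chromogranin A, averaged 296 ± 39.2 CPM with stereotypy, 531 ± 16.1 CPM without and 219.7 ± 38.7 CPM in the controls (SD, n = 3 each). It differed by -0.85 between the TrkB-deleted groups (SE 0.13, limma adjusted p = 0.0154) and by 1.28 between no stereotypy and control (SE 0.13, limma adjusted p = 0.000592). Pam, which amidates peptides such as substance P, was lower than in the controls with stereotypy (-0.50, limma adjusted p = 0.0255) and without (-0.68, limma adjusted p = 0.00412). The granin Scg2 was lower with stereotypy than in the controls (-0.79, limma adjusted p = 0.0406). Without stereotypy its difference from control was close to that (-0.70, limma adjusted p = 0.0526) but did not pass. Of the receptors of these peptides 5 were tested and 0 passed in limma in any of the 3 comparisons. Before adjustment 2 were below 0.05 between the TrkB-deleted groups, 2 without stereotypy against control and 1 with stereotypy against control. Over all genes tested these shares were 29.9%, 22.5% and 24%. Leaving out control replicate 3 and no stereotypy replicate 3, the counts past the threshold were 1, 2 and 0. The most abundant, the kappa opioid receptor Oprk1, averaged 49.4 ± 8.27, 36.4 ± 3.05 and 38.4 ± 5.44 CPM in the order stereotypy, no stereotypy and control (SD, n = 3 each).

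Relatives of Sfxn1, Eya1 and Slc35d3 were compared as well. Of 4 tested sideroflexins, Sfxn5 was higher than in the controls with stereotypy (0.71, SE 0.12, limma adjusted p = 0.0125) and without (0.96, SE 0.12, limma adjusted p = 0.00222), while Sfxn1 lay below 0 in both and did not pass. Sfxn5 averaged 88.8 ± 9.43 CPM with stereotypy, 105 ± 1.88 CPM without and 54.2 ± 9.48 CPM in the controls (SD, n = 3 each). Among 3 tested genes of the network that Eya1 acts in, Dach1, a transcriptional cofactor, was higher with stereotypy than without (0.87, SE 0.14, limma adjusted p = 0.0154). Among 8 tested nucleotide sugar transporters, Slc35a3, a Golgi carrier of UDP-N-acetylglucosamine, was higher with stereotypy than without (0.74, SE 0.16, limma adjusted p = 0.0246). Over all genes tested, 10.2% passed with stereotypy against without, 5.1% with stereotypy against control and 6.77% without stereotypy against control.

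Likeness between profiles was measured over the 9 libraries as the root mean square difference of log2(CPM + 1) after centring each gene, among 9681 protein-coding genes with a mean of at least 5 CPM. For Drd1 the closest genes were Khdc4 (0.0902) and Bbx (0.0907), where the profile of Drd1 itself had a root mean square of 0.277. For Tac1 they were Igsf11 and Fubp3, for Pdyn Galns and Leo1, for Slc35d3 Reln and Foxo1, for Eya1 Lrrc1 and Ypel2, and for Sfxn1 Insm1 and Gria4. Among the 6 themselves, Drd1 was at place 13 in the list of Tac1 and at place 32 in that of Slc35d3, and Eya1 was at place 36 in that of Tac1. The places differed by direction, Tac1 being at place 610 and Slc35d3 at place 428 in the list of Drd1 and Tac1 at place 32 in that of Eya1. Pdyn and Sfxn1 were both far down these lists, Pdyn at place 8009 in the list of Drd1 and 7730 in that of Tac1, and Sfxn1 at 8637 and 8389.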

How the data were processed

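RNA precipitated with tagged ribosomes was sequenced in 9 libraries, 3 per group. The authors deposited 1 table of CPM per library for 47729 gene identifiers. Alignment was with TopHat to GRCm38, per the submitters' processing notes. Which counter and annotation were used, and whether strand was, is not given in the sources used here. Divided by the value of 1 read, 100% of the non-zero values in each library were whole (tolerance 0.1 reads), so reads were recovered, with totals of 27103152 to 40578512. A count of 0 would allow 3 reads, and this covers counting error only. Symbols and positions came from GENCODE M21 (47310 identifiers matched, 419 did not).

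Genes reaching 1 CPM in 3 or more libraries were fitted as log2(CPM + 1), a scale that understates changes of low genes, in limma 3.58.1 (R 4.3.3) with a variance trend, a mean per group and 6 residual degrees of freedom. Benjamini-Hochberg adjustment ran over all 13695 genes, with a threshold of 0.05. P-values set a difference between group means against the spread of libraries within groups, estimated over all libraries in the fit. Leaving out a library of one group can therefore change calls between the other groups. edgeR 4.0.16 (quasi-likelihood) and DESeq2 1.42.0 were run on the recovered reads. Other alternatives were array weights, quantile normalization, a replicate block, rescaling by median-of-ratios size factors, pseudocounts of 0.25 and 4, no filter or a stricter one (mean of 5 CPM or more), fits to the libraries compared and leaving out each library.

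The 6 genes and the gene lists were chosen with earlier results of these data known. Besides the 6 genes and Ntrk2, the text names of each list up to 3 members past the threshold by size of change, otherwise up to 2 of its most abundant, the most abundant marker of other cell types, and for each of the 6 the 2 genes with the most alike profile. Drd2, Gnal and Slc1a2 were named outside that rule.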

Additional observations from a re-analysis of the deposited data

Results flagged for a closer look

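The effect of TrkB deletion against control differed between mice with and without stereotypy for 2 of the 6 genes, by the limma test of that difference over all 9 libraries, which 10.2% of all genes tested passed. For Drd1 the log2 difference from control was 0.15 with stereotypy and -0.42 without, which differ by 0.57 (SE 0.12, adjusted p = 0.0249). For Slc35d3 the log2 difference from control was 0.19 with stereotypy and -0.47 without, which differ by 0.65 (SE 0.19, adjusted p = 0.0493). Because the control libraries cancel in this difference, it is the same quantity as the comparison of the TrkB-deleted groups with each other. The Drd1 call was lost without any 1 of 4 of the 6 TrkB-deleted libraries, and the Slc35d3 call without any 1 of the 6.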

How the results depend on the processing

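Of 498 alternative values of the 24 differences (6 genes in 4 comparisons), 440 kept their direction and their side of the threshold, 17 lost a call, 36 gained one and 5 changed sign, none of these from a call. Signs changed only where 1 library was left out. Tac1 with stereotypy against control ranged from -0.41 to 0.054 (above 0 without control replicate 1 or 2), Pdyn with stereotypy against without from -0.16 to 0.049 (above 0 without stereotypy replicate 1 or no stereotypy replicate 2) and Slc35d3 for both groups against control from -0.27 to 0.046 (above 0 without control replicate 1). The Drd1 call also fell without a filter (adjusted p = 0.0592), and the Slc35d3 call fell in 12 of 21 alternatives (adjusted p 0.0137 to 0.179 over all 21). The cause was not tested.

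Genes called with stereotypy against control (699) were 330 without a filter, 326 in the libraries compared, 1522 in DESeq2 and 124 to 805 leaving out 1 library. Without stereotypy against control (927) they were 484 without a filter, 1873 with array weights, 568 in the libraries compared, 1509 in DESeq2 and 317 to 935 leaving out 1. With stereotypy against without (1398) they were 572 without a filter, 4698 with array weights, 2343 in DESeq2 and 0 to 1982 leaving out 1; limma called 0 when stereotypy replicate 3 (2873 genes at an unadjusted p under 0.05), no stereotypy replicate 1 (2926) or no stereotypy replicate 2 (3088) was left out, and 1 when it was stereotypy replicate 2. For both groups against control (784) they were 392 without a filter, 1326 in DESeq2 and 403 to 732 leaving out 1. edgeR called 643, 904, 1335 and 729 in the same order. Median-of-ratios rescaling moved the share of calls that were higher to 48.1%, 49.2%, 49.7% and 51.3%, against 70.1%, 55.6%, 64.7% and 64.2%.

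Of the 6 genes with stereotypy against control, 0 were called, and 0 to 1 leaving out 1 library (Sfxn1 without control replicate 2). Without control replicate 3 and no stereotypy replicate 3, chosen after seeing the data, 1 was called (Tac1, -0.41, limma adjusted p = 0.0338), and Pdyn stood at 0.22. Without stereotypy against control, 0 were called, 1 with a mean of at least 5 CPM, with rescaling, with quantile normalization and in the libraries compared, 3 with array weights, 2 in edgeR, 4 in DESeq2, 2 without those libraries (Drd1 and Tac1) and 0 to 3 leaving out 1. With stereotypy against without, 2 were called, 1 with a pseudocount of 4, with rescaling, with quantile normalization and in edgeR, 0 without a filter and 0 to 3 leaving out 1. For both groups against control, 0 were called, 3 in DESeq2, 1 without those libraries (Tac1) and 0 to 1 leaving out 1 (Sfxn1 without control replicate 2, Tac1 without control replicate 3).

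The main fit did not pair libraries by replicate number, since the labels give no pairing. Same-numbered libraries of different groups deviated together with correlations of -0.080 to 0.406, over 0.1 in 4 of 9 pairs. Differently numbered ones had -0.422 to 0.247, over 0.1 in 2 of 18 pairs. Whether the numbers mark pairs was not tested. A fit with the replicate number as a block called 1 of the 6 genes without stereotypy against control (Tac1, limma adjusted p = 0.0351) and 1 for both groups against control (Pdyn, limma adjusted p = 0.0490). With stereotypy against without, the block called Tac1 besides Drd1 and Slc35d3 (limma adjusted p = 0.0460).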

Other observations

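Genes induced by neuronal activity summed to a higher level in one control library than in any other, though not each of them was highest there. Their sum over 11 genes was 652, 868 and 1198 CPM with stereotypy, 544, 732 and 566 CPM without and 985, 1061 and 2256 CPM in the controls, where control replicate 3 was the highest of all 9. In the no stereotypy group against control 5 of 11 were lower and 0 higher in limma, where 6.77% of all genes passed, led by the transcription factors Egr2 (-2.23, adjusted p = 0.0267) and Nr4a1 (-2.00, adjusted p = 0.0436), with a list median of -1.03 against 0.03 over all genes. Without control replicate 3 and no stereotypy replicate 3 the count was 2 of 11 and the median -0.53. In the stereotypy group against control 0 of 11 passed in limma, 4 had an unadjusted p under 0.05 and the median was -0.53, against 0.05 over all genes. Without the same pair of libraries 1 of 11 was higher, 3 had an unadjusted p under 0.05 and the median was -0.29.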
